A study of Saccharomyces cerevisiae with 79 samples.

Results

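HAC1 (YFL031W) is the budding yeast gene whose intron is cut out by the endonuclease Ire1 and not by the spliceosome. It was taken by its gene ID as 1 of the 308 targeted introns of a study of splicing in Saccharomyces cerevisiae. Growing cultures in synthetic medium (CSM) received 4-thiouracil, an analogue of uracil that cells put into the RNA they make, and were collected on filters at timed intervals. Labelled RNA was biotinylated and purified, and the libraries were made by MPE-seq (multiplexed primer extension sequencing), where a primer beside each targeted intron starts reads that tell unspliced from spliced RNA. The tables give, for each intron and library, all reads and unspliced reads, and 2 classes of unspliced reads, those of the lariat intermediate and those ending downstream of the branch point, up to the 3′ splice site (branch to 3′ splice site reads). For prp2-1 and WT they also give a splicing index, from which the spliced reads were recovered.

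The strain prp2-1 carries a mutant allele of PRP2, whose product is an ATPase that activates the spliceosome for the first chemical step. It is used here with 1 full time course (replicate 1, 0 to 1317 s) and the 0 s library of replicate 2. A further 18 columns labelled prp2-1 could not be tied to a sample. They are given by their range, and they enter the counts of lariat and branch to 3′ splice site reads, which use no labelling time. WT_30 is the wild-type strain BY4741 in a separate series of 2 time courses, with total labelled Schizosaccharomyces pombe RNA as the spike-in and labelling times from 0 to 3600 s. WT is BY4741 in 3 time courses of 10 libraries each, with spike-in RNAs transcribed in vitro, as for prp2-1, and nominal times of 0, 90, 120, 150, 210, 300, 390, 540, 720 and 990 s. All cultures, including those at 0 s, grew in the same medium, and the labels name no agent that stresses the endoplasmic reticulum. They give no growth temperature, so what the prp2-1 allele did at the temperature used is not known from them. The labels do not tell whether the courses are separate cultures, and the spread behind each p-value may therefore be technical.

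HAC1 encodes the transcription factor of the unfolded protein response. When unfolded proteins build up in the endoplasmic reticulum, Ire1 cuts HAC1 RNA at both ends of its intron and the tRNA ligase Trl1 joins the exons. The unspliced RNA is exported to the cytoplasm and is translated poorly while the intron remains. No spliceosome, branch point or lariat takes part, and without stress most HAC1 RNA in yeast keeps its intron. Of 12 genes of this pathway, among them IRE1, TRL1 and the Hac1 targets KAR2 and ERO1, 0 are among the targets, so Hac1 activity could not be followed through them.

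The intron spans chrVI:75840-76091 of build R64 on the + strand, between exon 1 (75179 to 75839) and exon 2 (76092 to 76147), and lies within the coding sequence. At 252 bases it is longer than the median of 136.5 bases over the 278 other targeted introns located in the RefSeq annotation of R64. The sequences below, from the RefSeq genome of R64, show what sets it apart from an intron of the spliceosomal class, with ACT1, the actin gene, as the example. In the intron, capitals mark the 3 bases next to each cut. In both cut sites of HAC1, capitals mark the 6 bases CNGNNG with the cut in their middle. In ACT1, capitals mark GTATGT and TACTAAC.
HAC1 intron, chrVI:75840-76091, + strand: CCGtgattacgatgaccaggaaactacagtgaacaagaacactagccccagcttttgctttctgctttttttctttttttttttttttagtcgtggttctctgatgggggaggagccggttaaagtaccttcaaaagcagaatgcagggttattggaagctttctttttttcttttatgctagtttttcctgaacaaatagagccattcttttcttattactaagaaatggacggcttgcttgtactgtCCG
HAC1 5′ cut site, chrVI:75828-75851, + strand: ggcgtaatcCAGCCGtgattacga
HAC1 3′ cut site, chrVI:76080-76103, + strand: ttgtactgtCCGAAGcgcagtcag
ACT1 5′ splice site, chrVI:54675-54698, - strand: caatggattctgGTATGTtctagc
ACT1 branch sequence, chrVI:54412-54435, - strand: agtctcatgTACTAACatcgattg

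Searched on the strand of the transcript, GTATGT opened 204 of the 278 other introns (73.4%), and GT opened 270 (97.1%). TACTAAC lay in 230 (82.7%), and AG closed 277 (99.6%). The HAC1 intron has none of these 4. CNGNNG with the cut in its middle lay across the start of 0 of the 278 other introns and across the end of 26 (9.35%). It lay across both ends in HAC1 and in 0 of the others.

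Library totals over the targets and the spike-in together were 388817 to 4440617 reads in the labelled prp2-1 libraries, 4155116 to 11674413 in WT_30 and 935805 to 8130197 in WT. HAC1 itself had 1240 to 31747 reads in labelled prp2-1 libraries, 4480 to 16324 in WT_30 and 735 to 6436 in WT, and at 0 s it had 30 and 92 in prp2-1, 712 and 3015 in WT_30 and 338 to 587 in WT. Reads were PCR-amplified without molecular identifiers, so the intervals and limits on shares cover counting error only. In WT replicate 1, the libraries at 390 and 540 s stood apart from the rest in the makeup of HAC1 reads, and the pooled spliced share and the main WT and prp2-1 tests that use these times are also given without them. WT replicate 2 at 300 s, with 837 spike-in reads, stood apart the other way. There 58.1% of HAC1 reads were unspliced and 41.9% neither. Over its introns, a median of 43.5% of the reads that were not spliced were unspliced, against 75.9% or more in the other WT libraries. No value is given without this library alone.

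HAC1 RNA was mostly unspliced at every labelling time, while the median intron lost its unspliced reads. In prp2-1 the unspliced share of HAC1 reads was 67.5, 71.8, 70.3, 70.2, 70.4, 69.5, 68.7, 69.3 and 69.8% at the 9 labelled times from 113 to 1317 s. In WT_30 it lay between 86.5 and 90.7% over 18 labelled libraries, with a median of 89.6%. In WT it lay between 58.1 and 82.2% over 27 labelled libraries, with a median of 68.2%. The WT mean at 90 s was 67.4 ± 4.33%, at 150 s 69.99 ± 3.70% and at 300 s 64.3 ± 5.56%, and it was 71.5 ± 8.61% at 540 s and 65.4 ± 1.82% at 990 s (SD, n = 3 each). No test was made between single times. The spread at 540 s includes the 81.2% of replicate 1, and that at 300 s the 58.1% of replicate 2. The highest values, 82.2% at 390 s and 81.2% at 540 s, belong to WT replicate 1, whose other labelled libraries lie at or below 73.6%.

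Among all introns with at least 100 reads in a library, the median unspliced share in prp2-1 was 12.8, 5.89 and 3.07% after 113, 294 and 990 s. In WT_30 it was 15.5 ± 3.12% at 90 s and 7.39 ± 1.55% at 480 s, and 3.44 ± 0.439% at 3600 s, when HAC1 was at 89.7 ± 0.135% (SD, n = 2 each). The 2 HAC1 values after 3600 s, 89.6 and 89.8%, are inside the range of the earlier times. For WT the median intron had 14.5 ± 0.873% at 90 s and 18.6 ± 2.66% at 120 s, and then 5.50 ± 1.85% at 300 s and 3.01 ± 0.444% at 990 s (SD, n = 3 each). The mean at 300 s includes 3.38% in replicate 2, the library that stood apart. Over the pooled labelled libraries of prp2-1 replicate 1, 69.5% of HAC1 reads were unspliced, 0.690% were spliced and 29.8% were neither. In the labelled WT libraries 68.0% were unspliced, 0.205% spliced and 31.8% neither. Without the libraries of WT replicate 1 at 390 and 540 s these were 67.2, 0.156 and 32.6%.

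**Figure D1:**
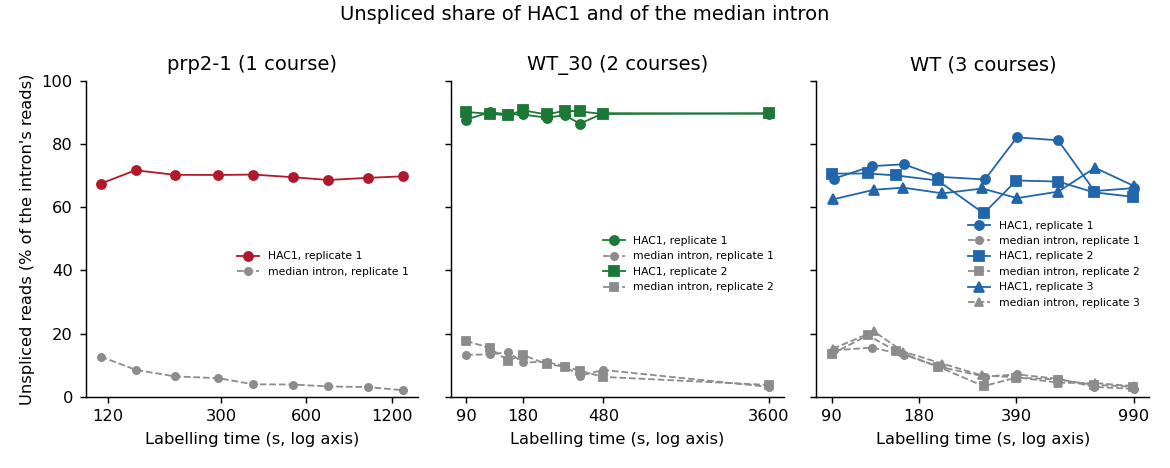
Unspliced reads as a percentage of the intron's reads (vertical axis) against labelling time in seconds (horizontal, log axis) for prp2-1, WT_30 and WT, with one point per library. Coloured points are HAC1, which lies between 58.1 and 90.7% in every labelled library shown. Grey points are the median over introns with at least 100 reads, which ends at 2.07% in prp2-1 at 1317 s and at 3.01% on average in WT at 990 s.

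The HAC1 intron gave no lariat intermediate reads and no branch to 3′ splice site reads. Reads of the lariat intermediate were 0 in all 29 prp2-1 columns, among 190645 unspliced HAC1 reads, which allows a share of up to 0.00157%. They were 0 in all 30 WT libraries, among 50072 unspliced reads, which allows up to 0.00599%. Branch to 3′ splice site reads were 0 in the same libraries, with the same limits. The median intron had 13.8% of its unspliced reads in the lariat class and 12.8% in the branch to 3′ splice site class in prp2-1, against 16.2% and 12.5% in WT. The authors' estimate of RNA before the first step was equal to the unspliced reads of HAC1 in 29 of 29 prp2-1 columns and 30 of 30 WT libraries. This follows from the zeros, since the estimate shares out the branch to 3′ splice site reads, and it adds no evidence of its own. HAC1 shares the zeros with other introns. Of those with a mean of at least 20 unspliced reads, 8 of 251 in prp2-1 and 7 of 269 in WT were at 0 in both classes, HAC1 included. The others in WT were YPR202W, YJR112W-A, BUD25, YDR535C, SNR17B and SNR17A. In the late over early comparison of WT below, SNR17A and SNR17B were called lower in the unspliced to spliced ratio. Their log2 changes were -1.02 and -1.94 (adjusted p = 0.00234 and 1.13e-05, edgeR's quasi-likelihood test). The rest of these others were not called. Whether the read classes were defined for introns with these zeros is not given in the sources used here. A 0 of an undefined class thus cannot be told apart from a 0 of RNA. The limits above on HAC1 hold only if its classes were counted, which was not tested. No test of these classes was possible for HAC1.

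Spliced HAC1 reads, as recovered from the splicing index, were rare but present. In prp2-1 replicate 1 there were 826 of 119699 labelled reads, or 0.690% (95% Wilson interval 0.645 to 0.739%). In WT there were 148 of 72119, or 0.205% (0.175 to 0.241%), and 106 of 68091, or 0.156% (0.129 to 0.188%), without replicate 1 at 390 and 540 s. The share over the 9 labelled times in prp2-1 was 2.34, 0.281, 0.286, 0.371, 0.610, 0.517, 0.769, 0.580 and 1.17%. The first of these rests on 29 reads of 1240 and stands above the other 8. In WT the share ranged from 0 to 1.23% per labelled library with a median of 0.180%, and 3 of the 30 WT libraries had 0 spliced HAC1 reads, which at 3 reads of the total allows shares of up to 0.189 to 0.221% (the upper Wilson bounds are 0.241 to 0.283%). Among labelled WT libraries the highest values were 1.23% at 540 s and 0.628% at 390 s, both in replicate 1. The median intron was 90.1% spliced over the same labelled WT libraries. Of 265 introns with enough reads, 24 were spliced in under 50% of reads and 3 were below HAC1.

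**Figure D2:**
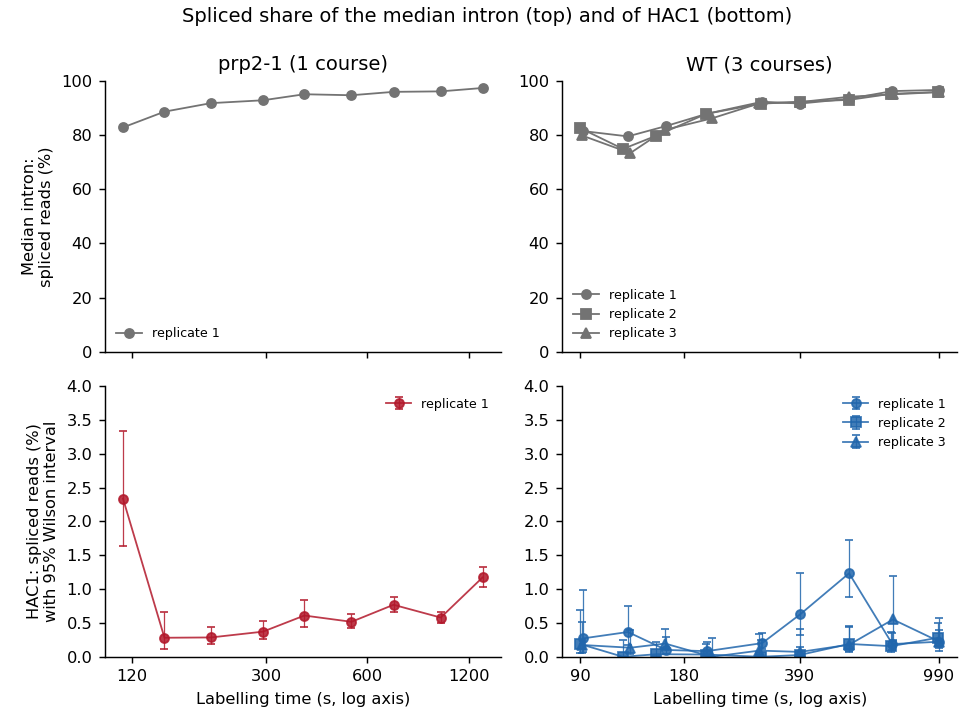
Spliced reads as a percentage of the intron's reads against labelling time in seconds (log axis), for prp2-1 (left) and WT (right), with one point per library. The upper panels give the median intron and run from 0 to 100%, and the lower panels give HAC1 with 95% Wilson intervals on an axis that ends at 4%, where the WT libraries lie at or below 1.23%.

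The first comparison asked how the unspliced state of HAC1 changed with labelling time in WT. Late libraries (540, 720 and 990 s) held 55, 21 and 14 spliced HAC1 reads in replicates 1, 2 and 3, against 20, 2 and 9 in the early libraries (150, 210 and 300 s). The spliced share was 0.423, 0.216 and 0.274% late and 0.141, 0.0278 and 0.126% early, and was higher late in 3 of 3 courses. Without its 540 s library, replicate 1 had 21 spliced reads of 10259 late, or 0.205%. The ratio of unspliced to spliced HAC1 reads was lower late by a log2 change of -1.57 ± 0.41 (SE, Benjamini-Hochberg adjusted p = 0.000883, edgeR's quasi-likelihood test). The median over 275 introns was -1.61, with 93.5% of introns called lower and 0.364% called higher, and 267 of the 275 had a value below 0. HAC1 thus lay near the median on this scale. The unspliced share of HAC1 was 68.9, 65.1 and 67.2% late, against 70.1, 66.8 and 65.8% early, and the windows overlap. For the median intron the unspliced share was 3.90 ± 0.504% late and 10.9 ± 0.914% early (SD, n = 3).

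Against all other reads in place of spliced reads, the log2 change of HAC1 was -0.034 (adjusted p = 0.879, edgeR's quasi-likelihood test), and only 12 of 275 introns had a higher value, beside a median of -1.52. With TMM factors, which bring the typical intron near 0 (median -0.06), it was -0.018 (adjusted p = 1.000, same test). Without the 540 s libraries the late against early change of the unspliced to spliced ratio was -1.30 (adjusted p = 0.0158, same test).

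**Figure D3:**
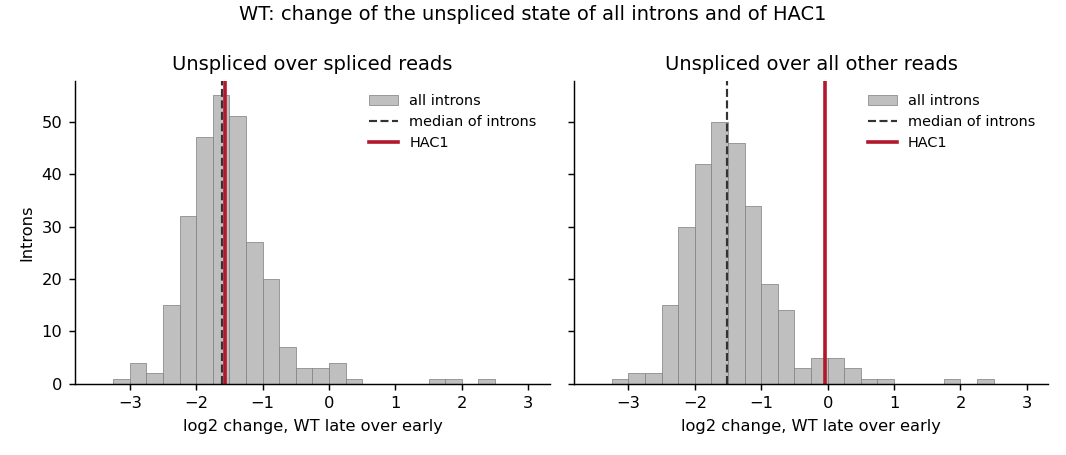
Number of introns (vertical) by the log2 change of the unspliced reads relative to spliced reads (left) or to all other reads (right), late over early WT libraries. The red line is HAC1 and the dashed line the median of the 275 introns. The lines coincide on the left, at -1.57 and -1.61, and lie apart on the right, at -0.034 and -1.52.

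The slope over labelling times from 90 to 990 s gave a second view, and its value depended on which times entered. The log2 ratio of unspliced to spliced HAC1 reads fell by 0.34 ± 0.087 for each doubling of labelling time in WT (SE, adjusted p = 0.00102, limma), with -0.196, -0.511 and -0.306 in the 3 courses. The median of 265 introns was -0.88, and 97.7% of introns were called lower than 0 and 0.755% higher. Without 390 and 540 s the HAC1 slope was -0.27 (adjusted p = 0.0834, limma), which misses the threshold. Relative to the median of introns in each course, the slope of HAC1 was higher by 0.53 ± 0.081 (adjusted p = 0.010, limma), and 15.8% of introns were called higher than the median and 14.7% lower by the same test. It was 0.64 without 390 and 540 s (adjusted p = 0.0157, limma), but 0.015 from 150 s on (adjusted p = 0.927, limma), so the difference from the median needs the libraries at 90 and 120 s. At 90 s HAC1 in WT had 89.7 ± 20.5 reads per 1000 spike-in reads, against 31.2 ± 8.01 at 0 s (SD, n = 3 each). The RNA pulled down without label was not subtracted for the slopes. Over 90 to 990 s 10 introns had a higher slope than HAC1, and from 150 s on 131 of 267 had. With a pseudocount of 5 reads in place of 0.5 the slope was -0.038 (adjusted p = 0.658, limma), and from 150 s on it was -0.83 (adjusted p = 1.83e-05, limma), beside a median of -0.84. In prp2-1 the slope was 0.11 ± 0.15 (adjusted p = 0.474, limma), and its difference from WT was 0.45 ± 0.17 (adjusted p = 0.125, limma), which misses the threshold of 0.05. The sign in prp2-1 rests on its first library, since from 150 s on the slope was -0.49 ± 0.17 (adjusted p = 0.0245, limma), and the difference from WT was 0.34 ± 0.20 (adjusted p = 0.425, limma). The single prp2-1 course is assumed to vary like the WT courses in these fits.

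Labelled RNA was also set against the 0 s libraries, which hold the RNA that is pulled down without label. HAC1 had 20, 2 and 9 spliced reads early in WT, against 3, 2 and 2 at 0 s, in totals of 14209, 7199 and 7122 against 338, 572 and 587. The spliced share was thus 0.0983 ± 0.0615% early and 0.526 ± 0.313% at 0 s (SD, n = 3). The unspliced to spliced ratio was higher early by a log2 change of 2.19 ± 0.83 (adjusted p = 0.0244, edgeR's quasi-likelihood test), higher in 3 of 3 courses, beside a median of 1.97 over 271 introns, with 67.5% called higher and 2.95% lower. Without any 1 of the courses the adjusted p was 0.107, 0.0571 and 0.0876 (replicates 1, 2 and 3 left out, same test), so the call needs all 3. With TMM factors the change was 0.40 (adjusted p = 0.683, same test). The unspliced share of HAC1 was 67.6 ± 2.25% early and 68.1 ± 1.07% at 0 s (SD, n = 3), a difference smaller than the spread.

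Unspliced HAC1 RNA built up with time where that of the median intron lagged behind. In prp2-1 replicate 1, unspliced HAC1 reads per spike-in read were 53.0 times as high at 990 s as at 150 s. Those of the median intron were 7.0 times as high. HAC1 had the highest fold of the 225 introns. In WT_30, from 90 to 480 s, the values were 31.7 and 13.99 times for unspliced HAC1 and 9.54 and 4.99 times for the median intron in replicates 1 and 2. In WT, unspliced HAC1 reads per spike-in read were 11.2, 13.96 and 5.29 times as high at 990 s as at 150 s in replicates 1, 2 and 3. The median intron in WT reached 2.77, 3.84 and 2.40 times. In WT HAC1 therefore stood at 3.30 ± 0.973 times the median (SD, n = 3) and was above it in 3 of 3 courses. Between 7 and 44 of 250 to 266 introns, with HAC1 itself counted, were at or above its value. All HAC1 reads were 12.5, 15.4 and 5.25 times as high, beside 13.3, 16.6 and 9.12 times for the median intron, so in WT the total of HAC1 grew by no more than that of the median target. In prp2-1 all HAC1 reads were 54.9 times as high, beside 23.5 times for the median intron. In WT_30 they were 31.0 and 14.1 times as high in replicates 1 and 2, beside 14.6 and 11.8 times, so in these 3 courses the total of HAC1 was above the median as well. These folds carry no test, and the RNA pulled down without label was not subtracted. In WT_30 at 0 and 90 s, HAC1 had means of 6.89 and 32.7 reads per 1000 spike-in reads, and the sum of the other targets 18827 and 38337. In prp2-1 replicate 1 at 0 and 150 s, HAC1 had 1.82 and 24.7, and the other targets 1923 and 6348. In these 3 courses the background was thus a larger part of the earlier time for the other targets than for HAC1. Its part in the folds was not tested. The authors' normalized signal of unspliced HAC1, which is scaled with 1 factor for all replicates of a time, gave 17151 ± 2213 in WT at 150 s and 251680 ± 114024 in WT at 990 s (SD, n = 3).

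**Figure D4:**
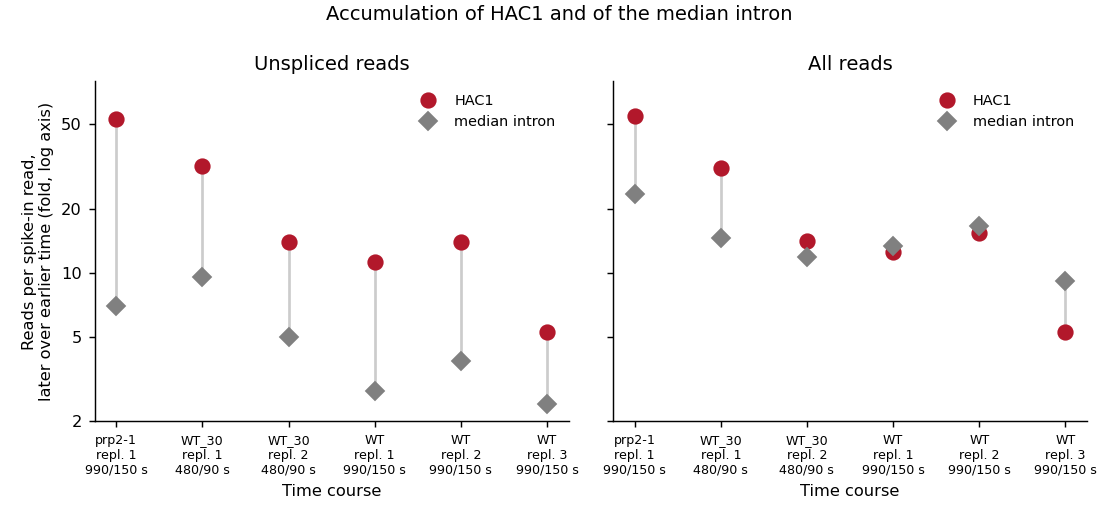
Fold of the reads per spike-in read between a later and an earlier time (vertical, log axis) in each time course, for unspliced reads (left) and all reads (right). Times are 990 over 150 s in prp2-1 and WT and 480 over 90 s in WT_30. Red circles are HAC1 and grey diamonds the median intron. For unspliced reads HAC1 lies above the median in all 6 courses.

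HAC1 made up more of the labelled reads in prp2-1 than in WT. In CPM, reads per 1000000 reads of all targets, it had 3868, 3876, 5161, 5566, 5518, 9485, 8626, 8931 and 4523 in prp2-1 replicate 1 from 113 to 1317 s. In the 27 labelled WT libraries it had 255 to 1814, with a median of 715, so the 2 groups do not overlap. How many other targets separate in this way was not counted. At 0 s, without label, HAC1 had 945 and 2451 CPM in prp2-1 (30 and 92 reads) and 488 to 834 in WT. This background was not subtracted, and its part in the difference was not tested. The ratio of prp2-1 to the WT mean was 3.64, 6.01, 6.13, 9.99 and 18.4 at the nominal times of 120, 150, 300, 540 and 990 s. Summed over 150 to 990 s, HAC1 had 7705 CPM in prp2-1, against 927, 602 and 385 in WT replicates 1, 2 and 3. The log2 change was 3.02 ± 0.42 (SE, adjusted p = 0.00267, edgeR's quasi-likelihood test with TMM factors), above 3 of 3 WT courses. Of 284 targets 32% were called higher and 34.5% lower, and 6 had a larger change than HAC1. Without 390 and 540 s the change was 3.16 (adjusted p = 2.54e-05, same test). This test has 1 prp2-1 course, which is assumed to vary like the WT courses.

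Relative to the spike-in the direction turned round. HAC1 had 18.2 reads per 1000 spike-in reads in prp2-1 and 186 ± 50.2 in WT (SD, n = 3) at the nominal 120 s, and 1356 in prp2-1 and 2896 ± 952 in WT at 990 s. The log2 change scaled to spike-in reads was -1.12 (adjusted p = 0.0324, edgeR's quasi-likelihood test), beside a median of -4.18 over all targets. The sum of the other targets was 24.0 to 68.3 times as high in WT as in prp2-1 per spike-in read at the 8 shared times. HAC1 in prp2-1 thus had 0.0882 to 0.532 of the WT mean while the rest had far less. A change of scaling moves all targets alike, so HAC1 lies above the median target in prp2-1 by either one. The second scaling adds no evidence on this. The spike-in share moves with the strain, and its part in the result was not tested. In bulk RNA, fewer cells and less RNA per cell cannot be told apart.

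**Figure D5:**
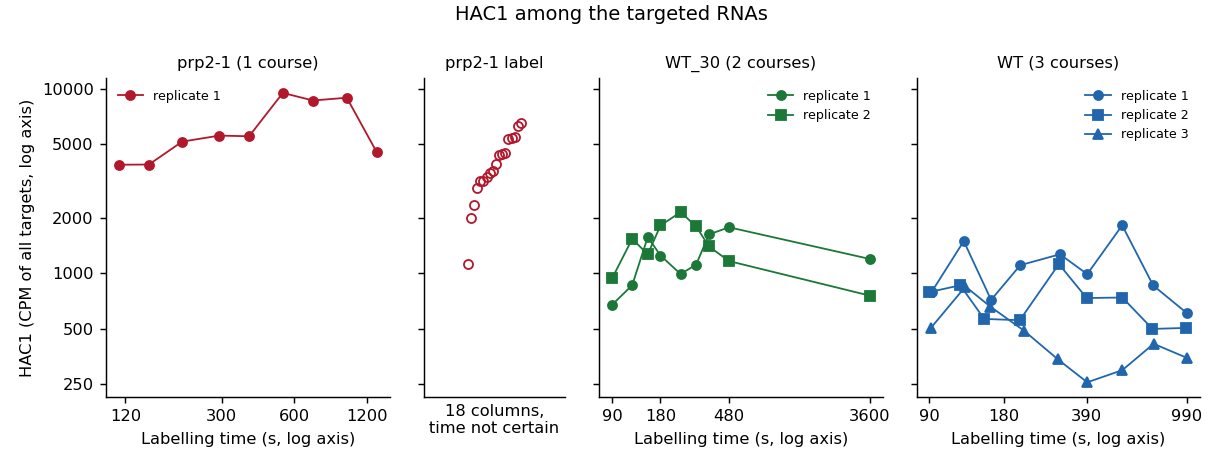
HAC1 in CPM of all targets (vertical, log axis) against labelling time in seconds (log axis) in prp2-1 replicate 1, in the 18 columns labelled prp2-1 without a certain time (open circles, sorted by value), in WT_30 and in WT. The 9 labelled prp2-1 libraries lie at 3868 and above, and the WT libraries at 1814 and below.

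The spliced share of HAC1 in the single prp2-1 course was above that of each WT course, though the call depends on which times and courses enter. Summed over 150 to 990 s it was 0.571% (562 reads) in prp2-1, against 0.291, 0.116 and 0.176% (83, 24 and 24 reads) in WT. The unspliced to spliced ratio was lower by a log2 change of -1.55 ± 0.42 (adjusted p = 0.0174, edgeR's quasi-likelihood test), below 3 of 3 WT courses, with the spread of prp2-1 again assumed to be that of the WT courses. Over 283 introns the median was -0.68, with 1.77% called higher and 28.3% lower, and 19 introns had a lower value than HAC1. The HAC1 call was lost without WT replicate 3 (-1.50, adjusted p = 0.0917), in the early times alone (-1.60, adjusted p = 0.0639), in the late times alone (-0.99, adjusted p = 0.399) and without 390 and 540 s (-1.81, adjusted p = 0.0537), all by the same test. The unspliced share did not separate the groups, at 69.5% in prp2-1 and 70.1, 66.3 and 66.0% in WT, and against all other reads the log2 change was 0.13 (adjusted p = 0.755, same test).

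Within WT, the level of HAC1 among the targets was lower late in 3 of 3 courses, and the change passed the threshold with the course as a block but not without. It was 820, 549 and 334 CPM late, against 1045, 627 and 486 early. The log2 change was -0.30 ± 0.34 (adjusted p = 0.561, edgeR's quasi-likelihood test), with 4% of 275 targets called higher and 4.73% lower, and without 390 and 540 s it was -0.39 (adjusted p = 0.465, same test). With the course as a block, since late and early libraries of a number come from the same course, the change was -0.34 (adjusted p = 0.0171, same test) and passed the threshold, as did 131 targets in place of 24.

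WT_30 carried the same strain and had a higher unspliced share of HAC1, while a difference in the level of HAC1 depended on the scaling. Over the shared times of 90, 120, 150 and 300 s, HAC1 had 1048 and 1388 CPM in WT_30, against 1052, 739 and 542 in WT. The log2 change was 0.20 ± 0.22 (adjusted p = 0.424, edgeR's quasi-likelihood test), while 37.3% of 284 targets were called higher and 34.5% lower. Without TMM factors it was 0.65 (adjusted p = 0.0203, same test) and passed the threshold, beside a median of 0.59 over all targets. In CPM, prp2-1 thus stood above WT_30 and WT, which overlap. The unspliced share was 89.3 and 90.0% in WT_30, against 70.7, 67.6 and 65.4% in WT, with no overlap. As a ratio to all other reads, since WT_30 has no splicing index here, the log2 change was 2.04 ± 0.28 (adjusted p = 3.99e-06, edgeR's quasi-likelihood test). In WT at these times only 0.208, 0.0440 and 0.154% of HAC1 reads were spliced. Its other reads were thus nearly all neither spliced nor unspliced. The higher ratio in WT_30 is a lower share of such reads, and it does not measure splicing. The median over 284 introns was 0.32, with 37.7% called higher and 28.2% lower, and 36 introns had a larger change. The series were made apart and with different spike-ins, so the series and any handling that came with it cannot be told apart.

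Within WT_30 the log2 change of the HAC1 ratio to all other reads, late (300, 360 and 480 s) over early (90, 120 and 150 s), was 0.0021 ± 0.20 (adjusted p = 0.992, edgeR's quasi-likelihood test). The shares were 88.7 and 90.3% late, against 89.4 and 89.7% early. Over 282 introns the median change was -0.73, with 65.6% called lower and 0% higher, and 9 introns had a value above that of HAC1. By the same test 193 introns had an unadjusted p under 0.05, and DESeq2 called 187 lower and 0 higher. The slope against all other reads was -0.0060 for HAC1 in WT_30 (adjusted p = 0.954, limma), where the median intron had -0.45.

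The introns whose unspliced to spliced ratio was nearest to that of HAC1 over the 27 labelled WT libraries were MTR2, YDR535C, YJR112W-A, YPR202W and MPT5. Their root mean square log2 differences from HAC1 were 1.61, 1.85, 1.89, 2.60 and 3.80, against 12.2 for the median intron. MTR2 encodes an mRNA export factor and was 0.174% spliced. It had 99.1% of its unspliced reads in the branch to 3′ splice site class, where HAC1 had 0 and may not have been counted. Its late over early log2 change was -0.11 ± 0.32 (adjusted p = 0.745, edgeR's quasi-likelihood test). MPT5 encodes a Puf-family RNA-binding protein and was 2.52% spliced. Its change was -0.91 ± 0.30 (adjusted p = 0.00560, same test), and 1.60% of its unspliced reads were of the branch to 3′ splice site class. YDR535C, YJR112W-A and YPR202W, like HAC1, had 0 reads of the lariat and branch to 3′ splice site classes, and they were 0.150, 0 and 0.621% spliced. In labelled RNA of prp2-1 against WT, YDR535C had a log2 change of 2.20 (adjusted p = 0.00368), MPT5 1.22 (adjusted p = 0.00270) and MTR2 0.59 (adjusted p = 0.0378), all below that of HAC1, by edgeR's quasi-likelihood test. YJR112W-A and YPR202W did not pass, at 0.31 and 0.12.

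A list of 15 genes of the endoplasmic reticulum and early secretory pathway, whose introns the spliceosome removes, was set beside HAC1. It includes SAR1, the GTPase of COPII vesicles, and ERD2, the receptor that returns proteins to the endoplasmic reticulum. In WT late against early, 16 of 16 of their introns were called lower in the unspliced to spliced ratio, where 93.5% of all introns were, with a median of -1.85 beside -1.61 over all introns. YOS1, a vesicle transport gene, was lowest at -2.37 and SCS22 highest at -1.16. In WT_30, where HAC1 had 0.0021, 14 of 16 were called lower against all other reads, where 65.6% of all introns were, with a median of -1.17 beside -0.73. In prp2-1 against WT, 7 of 16 introns were called lower in the unspliced state, where 28.3% of all introns were, and the other 9 did not pass, with a median of -0.73 beside -0.68. Of their labelled RNA, 9 of 16 targets were called higher in prp2-1, where 32% of all targets were, and the other 7 did not pass, with a median of 0.64 beside -0.01 over all targets. The highest was SCS22 at 1.97, below the 3.02 of HAC1.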

How the data were processed

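MPE-seq of labelled RNA covers 79 samples. Per the submitters' processing notes, the aligner was STAR 2.7.2b and the build R64. How reads were assigned to classes is not given in the sources used here. Counts of all, unspliced, lariat and branch to 3′ splice site reads were deposited as whole numbers. The authors' tables of estimated counts (pre-first-step RNA and lariat intermediate) share out the branch to 3′ splice site reads. Normalized signal was deposited as scaled unspliced reads, and its HAC1 row, which carries no gene name for prp2-1 and WT, was found by its fit to the raw counts (relative SD 0.00232 and 0.00148, against 0.170 and 0.635 for the next row). The splicing index is a deposited ratio. All reads divided by the index plus 1 gave whole numbers in 7782 of 7782 prp2-1 and 8348 of 8348 WT cells (tolerance 0.01 reads), and these were taken as spliced reads. An index of 0 with unspliced reads present was read as 0 spliced reads (467 and 600 cells). All reads less unspliced reads are not spliced reads, since many HAC1 reads are neither, and were used as the second state only for WT_30, which has no index here, and as an alternative.

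Of the 29 columns of a prp2-1 table, 18 match no sample title with certainty, and no time was given to them. Counts were summed per course and window. Unspliced and spliced reads entered edgeR 4.0.16 (R 4.3.3) as paired columns, with 1 term per course and window, and the interaction with window or group was tested by the quasi-likelihood test across all introns, with Benjamini-Hochberg adjustment at 0.05, a minimum mean of 20 unspliced and 100 total reads, and no TMM. Labelled RNA was tested on all reads with TMM. Slopes of the log2 ratio (pseudocount 0.5 reads) on log2 time were compared with limma 3.58.1, over WT and prp2-1 together, and over WT and WT_30 together against all other reads. DESeq2 1.42.0 was an alternative. The tests were checked on simulated counts with known changes. Planned tests of lariat and branch to 3′ splice site reads of HAC1 were not run, as it has 0 such reads. Per the labels, late and early libraries of a WT number belong to one course. Deviations from the group means correlated within a number at 0.672, 0.391 and 0.635 for the unspliced state and at 0.673, 0.646 and 0.754 for labelled RNA, and early and 0 s libraries at 0.257, 0.302 and 0.249, so they are pairs. The members and the lists (pathway genes, genes of the endoplasmic reticulum and early secretory pathway) were chosen with earlier results of these data known. Besides HAC1 the text names the 5 introns nearest to it in the log2 unspliced to spliced ratio over labelled WT libraries, and the highest and lowest member of each list.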

Additional observations from a re-analysis of the deposited data

Results flagged for a closer look

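The 18 columns labelled prp2-1 that no sample title matches with certainty enter no test. Apart from the counts of lariat and branch to 3′ splice site reads, they enter no comparison above. HAC1 had 1121 to 6476 CPM in them, with a median of 3748, and 17 of the 18 lie above the highest of the 30 WT libraries, which had 1814. The 9 labelled prp2-1 libraries of replicate 1 had 3868 to 9485, and all 9 lie above that WT library too. How many other targets lie above every WT library in this way was not counted. The lowest of the 18 columns has 212 HAC1 reads in all. The spliced share of HAC1 in these columns ranged from 0 to 6.13%, with a median of 0.437%, and the unspliced share from 65.4 to 79.9%. The 6.13% is 13 of the 212 reads of that lowest column, and the next highest share is 1.30%. Their labelling times are not known, so no value was tested.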

How the results depend on the processing

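Of the alternatives run for the comparisons of HAC1, 67 kept direction and side of the threshold, 13 lost the call, 2 gained one and 4 reversed. With all reads less unspliced as the second state, HAC1 had -0.034 (WT late over early), -0.017 (slope), -0.028 (WT early over 0 s, reversed) and 0.13 (prp2-1 over WT, reversed), where HAC1 reads that are neither spliced nor unspliced count as the second state. With TMM factors the WT changes were -0.018 (late over early) and 0.40 (early over 0 s), and the introns called late over early in WT numbered 22 in place of 258, and in WT_30 0 in place of 185. Scaled to spike-in reads, labelled HAC1 RNA had 2.18 in WT late over early (median of targets 2.40, with 275 in place of 24 called) and -1.12 in prp2-1 over WT (median -4.18). Without TMM it had 0.65 in WT_30 over WT (median 0.59), a call gained. A pseudocount of 5 gave a slope of -0.038 and leaving out 390 and 540 s gave -0.27. For prp2-1 over WT the unspliced state was -1.60 early, -0.99 late and -1.81 without 390 and 540 s, and introns called numbered 28, 10 and 4 in place of 85, 156 by DESeq2, and 52 and 56 without WT replicates 2 and 3. The cause was not tested for any of these.

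With the replicate block, labelled HAC1 RNA late over early in WT was -0.34 and 131 targets were called in place of 24 (68 by DESeq2, 12 without 390 and 540 s, and 0, 0 and 44 without replicates 1, 2 and 3). The block changed no other call. WT_30 courses correlated at 0.112 between windows, and WT_30 with WT at -0.0007 and 0.138 (unspliced state) and -0.124 and -0.050 (labelled RNA), so WT_30 and WT share only numbers. Leaving out each course gave -1.77 to -1.40 (WT late over early), 2.02 to 2.56 (WT early over 0 s, no longer called), 1.95 to 2.13 (WT_30 over WT), -1.93 to -1.26 (prp2-1 over WT), -0.36 to -0.23, 2.91 to 3.37 and 0.044 to 0.39 (labelled RNA of WT late over early, prp2-1 over WT and WT_30 over WT) and -0.41 to -0.25 (slope). WT_30 late over early has no such value, as 1 course leaves no residual. Tests of lariat and branch to 3′ splice site reads were not run. The alternatives on all other reads, on spike-in scaling, without 390 and 540 s, on early or late labelled RNA, and on the slopes of prp2-1 and less the median from 150 s on were chosen after seeing the data. At most 34 spliced HAC1 reads in a WT library limit what its ratio can show.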
